A study of Rattus norvegicus with 6 samples.

Results

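A set of 10 genes for xenobiotic nuclear receptors, their partners and liver transcription factors was followed in the liver of rats fed epsilon-momfluorothrin, a pyrethroid insecticide. The genes were Nr1i3 (CAR), Nr1i2 (PXR), Rxra (RXR-alpha), Ppara (PPAR-alpha), Nr1h3 (LXR-alpha), Hnf4a (HNF4-alpha), Nfe2l2 (NRF2), Keap1, Foxa2 and Cebpa (C/EBP-alpha). Every probe set whose platform annotation gave 1 of these symbols was taken, which was 17 of the 31042 probe sets that are not array controls and 10 of 14217 named genes. All 17 probe sets passed the filter on low signals. The animals were male rats of the BrlHan:WIST@Jcl(GALAS) stock, 7 weeks old, with 3 on a control diet without the compound and 3 on the treated diet for 2 weeks, and 1 Affymetrix array per liver. The dietary dose of the treated group is 3000 ppm in the sample titles and 5000 ppm in the diet labels, and which of them was fed is not settled by the labels. The replicates are numbered biological replicates per the labels, and the number of arrays limits the precision of every value.

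The values are MAS5 signals, linear probe set intensities that the authors had scaled to a common trimmed mean of 100 on each array. Array medians were 27, 28.5 and 29.4 across the control animals against 25.9, 26.5 and 23.1 across the treated ones, and did not overlap (exact permutation p = 0.1, 2-sided, the smallest that 3 against 3 allows). All 13 hepatocyte markers of the labelled tissue were bright enough to be tested. Their summed signal was 101263 to 110574 in control and 88729 to 100255 in treated livers, and none of the 13 passed the threshold. Of these, 12 had a log2 difference below 0 (median -0.15), and 7 were lower without overlap of the groups, as were 9.23% of all genes. The median was -0.03 under quantile normalization, and 9 of the 13 were above 0 when each array was centred on its median. Fewer cells of a type and less RNA per cell cannot be told apart in such samples. Kupffer cell markers summed to 2870 to 3688 in control and 3627 to 4298 in treated livers, with 10 of 12 on the array. Cd14, a receptor for bacterial endotoxin, carried that difference, with a mean of 986.3 in control and 1758 in treated livers. The other 9 summed to 1940 to 2411 and 1948 to 2252, the median log2 difference of the 10 was -0.02, and Clec4f, a lectin of Kupffer cells, had -0.33 ± 0.13. For stellate cells the sums were 2390 to 3021 and 2552 to 2807, and for endothelial cells 2951 to 3413 and 3187 to 3560. Col3a1 alone, with means of 1574 and 1568, carried much of the stellate sums. Of 10 endothelial markers tested, Lyve1 was higher (0.31 ± 0.14) and Eng lower (-0.45 ± 0.12, SE) without overlap. The shares over all genes were 9.04% and 9.23%, and neither marker passed. Of 8 cholangiocyte markers on the array, 2 could be tested, and Krt7, Spp1, Cftr, Tff2 and Cldn4 stayed below the median of every array. Among the tested ones, Epcam, an epithelial adhesion protein, was higher without overlap but did not pass (0.63 ± 0.16, SE, limma adjusted p = 0.22). The other, Krt18, had -0.08 ± 0.10 with overlapping groups. The 8 markers summed to 929 to 1164 in control and 1012 to 1052 in treated livers. The part of these differences in the values below was not tested.

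CAR and PXR are the sensors through which the liver answers many drugs and pesticides. CAR is held in the cytoplasm by chaperones and enters the nucleus after an activating signal. PXR is switched on by binding foreign compounds. Both act on DNA as partners of RXR-alpha, which also pairs with PPAR-alpha, a fatty acid sensor, and LXR-alpha, an oxysterol sensor. NRF2 drives genes of glutathione synthesis and redox defence and is kept low by KEAP1, an adaptor that hands it to a ubiquitin ligase. HNF4-alpha, FOXA2 and C/EBP-alpha maintain the genes that define a hepatocyte. Much of the control of CAR and NRF2 acts on protein location or stability, which an RNA array does not measure.

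None of the 10 regulator genes passed an adjusted p of 0.05 in limma, in either direction. Over all 9200 genes tested, 0.217% passed, 18 higher and 2 lower. At an unadjusted p under 0.05 there were 2 of the 10, Nr1i3 and Nfe2l2, where 12.2% of all genes met that mark. Differences were small in both directions, with 5 genes above 0 and 5 below, of which Hnf4a and Keap1, both within 0.01 of 0, changed sign under other scalings. The median log2 difference was 0.05, against -0.01 over all genes tested, and single genes ranged from -0.52 for Foxa2 to 0.32 for Nr1i3. Under the scaling used, the data nevertheless bound the size of a change. For 9 of the 10 genes the unadjusted 95% interval lay inside a 2-fold change either way, the exception being Foxa2, and for 6 it lay inside a 1.5-fold change. Centring each array on its median moved all differences up by about 0.17, for example Cebpa to 0.39 ± 0.12 and Nfe2l2 to -0.28 ± 0.14 (SE). The bounds were not drawn up for that scaling. Groups did not overlap for Nr1i3 and Rxra, which were higher, and Nfe2l2, which was lower, that is 3 of 10 genes where 18.3% of all genes did so (9.04% with the treated group higher and 9.23% with it lower).

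**Figure D1:**
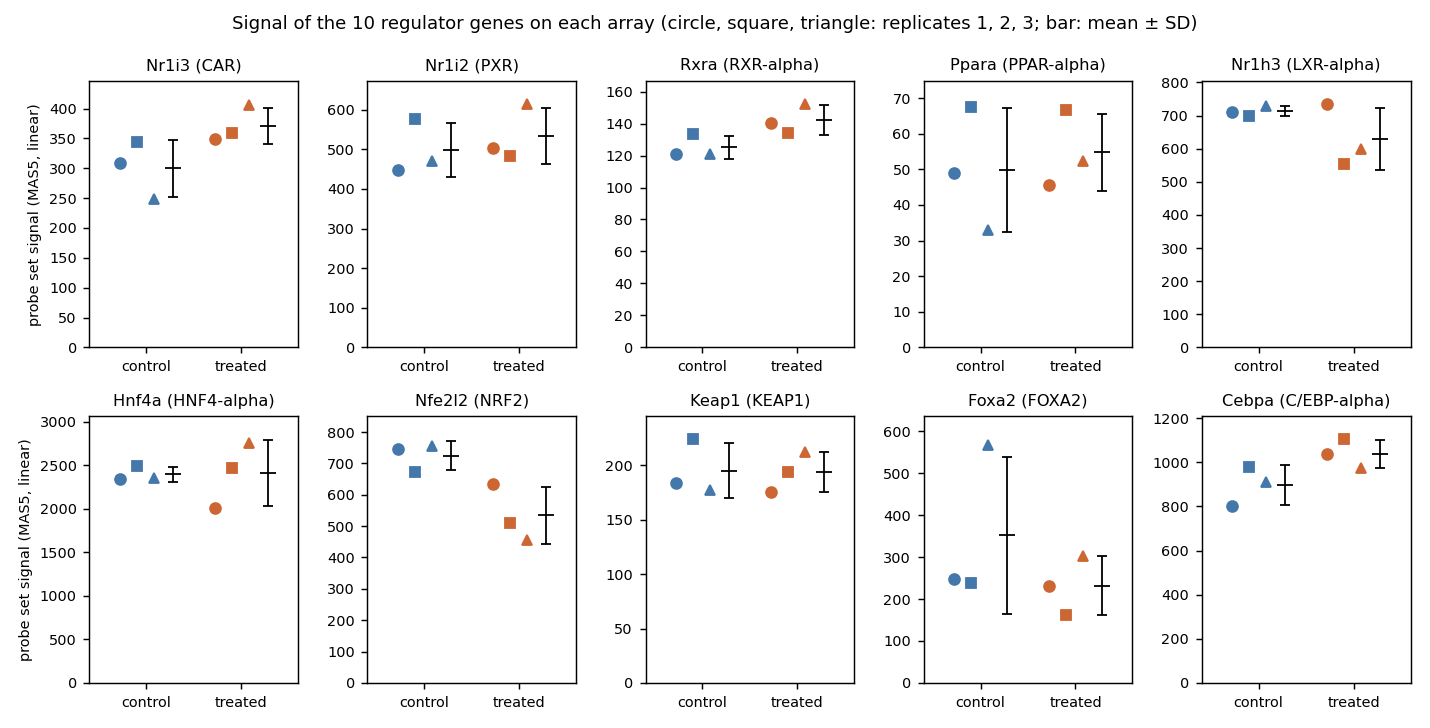
Signal of the brightest probe set of each of the 10 genes (vertical axis, MAS5 units, from 0) on the 3 control and 3 treated arrays, with replicates 1, 2 and 3 as circle, square and triangle and the mean ± SD beside them. The groups separate for Nr1i3, Rxra and Nfe2l2, and the widest spread relative to the mean is that of Foxa2, where control replicate 3 reads 568.3 against 248.2 and 238.8.

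The xenobiotic receptors came first by role. Nr1i3 encodes CAR, the receptor behind the phenobarbital type of liver induction. Control replicates 1, 2 and 3 gave signals of 308, 343.6 and 249.2, and treated replicates 1, 2 and 3 gave 349.8, 358.6 and 405.2. Every treated array lay above every control array, although control replicate 2 and treated replicate 1 were nearly level. The means were 300.3 ± 47.7 and 371.2 ± 29.8 (SD, n = 3 each), a log2 difference of 0.32 ± 0.13 (SE, limma adjusted p = 0.421). The unadjusted interval ran from 0.02 to 0.61, or 1.01-fold to 1.53-fold. Without control replicate 3, the array with the lowest Nr1i3 signal, the difference was 0.19.

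Nr1i2 encodes PXR. Its signals were 447.8, 575.7 and 471 without the compound and 504.4, 483 and 613.3 with it, so that the groups overlapped throughout. The log2 difference was 0.10 ± 0.13 (SE, n = 3 each, limma adjusted p = 0.798), with an interval of -0.19 to 0.39 whose upper end is 1.31-fold. Without treated replicate 3, the highest of the 6 arrays, it was 0.00.

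Rxra encodes the partner that CAR, PXR, PPAR-alpha and LXR-alpha share. It read 121.2, 133.5 and 120.8 on the control arrays against 140.1, 134.1 and 152.5 on the treated arrays. The groups did not overlap, but treated replicate 2 exceeded control replicate 2 by less than 1 unit. The log2 difference of 0.18 ± 0.11 did not pass (SE, n = 3 each, limma adjusted p = 0.563).

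The lipid-sensing receptors gave no separation of the groups. Ppara, the receptor for fatty acids and fibrate drugs, lay close to the array medians, at 49.08, 67.51 and 32.92 across the control animals against 45.48, 66.62 and 52.29 across the treated ones. Its lowest signal was 1.12 times the median of that array. The log2 difference was 0.18 ± 0.27 (SE, n = 3 each, limma adjusted p = 0.831), it turned to -0.09 without control replicate 3, and its interval of -0.44 to 0.79 was wide. Nr1h3, the oxysterol receptor LXR-alpha, had tight control signals of 711.8, 698 and 730.1. Treated replicate 1 read 734.6 and exceeded them all, whereas treated replicates 2 and 3 read 555.1 and 598.8. The log2 difference was -0.19 ± 0.11 (SE, n = 3 each, limma adjusted p = 0.549). It was -0.31 without treated replicate 1, -0.10 without treated replicate 2 and -0.02 with each array centred on its median.

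The next pair was NRF2 and the adaptor that inhibits it. Nfe2l2, which encodes NRF2, had the smallest p-value of the 10. It read 744.7, 671.2 and 756.9 without the compound and 635.8, 510.6 and 456.6 with it, all treated arrays below all control arrays. The means were 724.2 ± 46.4 and 534.3 ± 91.9 (SD, n = 3 each), a log2 difference of -0.45 ± 0.13 (SE). It did not pass over all probe sets (adjusted p = 0.248 in limma), and the unadjusted interval was -0.74 to -0.16. The difference stayed below 0 in all 16 alternatives, between -0.58 and -0.28, with adjusted p from 0.149 to 0.561. Keap1 read 184, 224.2 and 177.4 on the control arrays against 175.5, 193.6 and 212.2 on the treated arrays, a log2 difference of -0.01 ± 0.13 (SE, n = 3 each, limma adjusted p = 0.987). A further, dimmer probe set of Keap1 gave 0.01 ± 0.17. The interval of the brighter probe set, -0.30 to 0.28, lies inside a 1.5-fold change in both directions.

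Of the hepatocyte identity factors, Hnf4a was read by 3 probe sets that differed among themselves. The brightest read 2335, 2493 and 2354 across the control animals against 2004, 2472 and 2759 across the treated ones, a log2 difference of 0.00 ± 0.11 (SE, n = 3 each, limma adjusted p = 0.998). Its treated arrays were spread far wider than its control arrays. A dimmer probe set read 324.2, 318.2 and 264.1 without the compound and 360.5, 373.2 and 391.5 with it, and the groups did not overlap. That gave a log2 difference of 0.32 ± 0.11 (SE, limma adjusted p = 0.329), and the third probe set gave 0.10 ± 0.12. Which transcripts of the gene each probe set reads was not analysed here.

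Foxa2, a pioneer factor that opens liver chromatin, had the largest difference and the largest error. Control arrays read 248.2, 238.8 and 568.3 and treated arrays 230.4, 162.7 and 303.7. The log2 difference was -0.52 ± 0.34 (SE, n = 3 each, limma adjusted p = 0.583), and control replicate 3 made most of it: without that array it was -0.11. Replicate 3 was the highest array in both groups. Cebpa, a factor of hepatocyte metabolism and growth arrest, was read by 5 probe sets, all of them with a difference above 0, from 0.05 to 0.26. The brightest read 803.5, 980.3 and 909.7 on the control arrays against 1039, 1104 and 976.3 on the treated arrays. These overlapped by a narrow margin, since treated replicate 3 lay just below control replicate 2. The log2 difference was 0.21 ± 0.10 (SE, n = 3 each, limma adjusted p = 0.443).

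**Figure D2:**
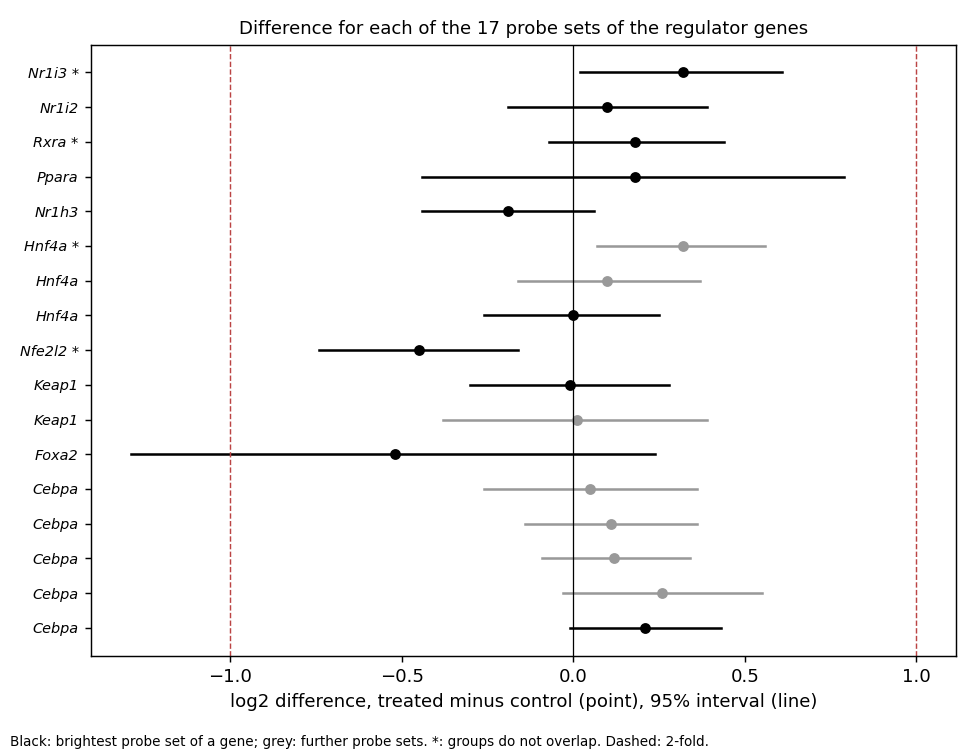
Log2 difference of treated minus control (horizontal axis) for each of the 17 probe sets, with unadjusted 95% intervals from limma. Black marks the brightest probe set of a gene, grey the others, an asterisk probe sets whose groups do not overlap, and the dashed lines a 2-fold change. The interval of Foxa2 alone reaches past a dashed line, and Hnf4a shows 1 of its 3 probe sets apart from 0.

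Over the 17 probe sets the groups did not overlap for 4, which were those of Nr1i3, Rxra and Nfe2l2 and the dimmer one of Hnf4a, where 17.8% of all 15778 probe sets did so. None of the 17 passed the adjusted threshold, where 0.171% of all probe sets passed. Variation between animals differed among the genes. Within the control group the coefficient of variation ran from 2.26% for Nr1h3 to 53.3% for Foxa2, and within the treated group from 1% for the dimmer Keap1 probe set to 30.4% for Foxa2. The highest signal among the 6 arrays was 3.49 times the lowest for Foxa2, 2.05 times for Ppara, and 1.26 to 1.66 times for the other 8. Treated replicate 3 was the highest array for 4 of the 10 genes, namely Nr1i3, Nr1i2, Rxra and Hnf4a, and the lowest for Nfe2l2. Control replicate 3 was the lowest for Nr1i3, Rxra and Ppara and the highest for Nfe2l2 and Foxa2.

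The stretches of DNA just before the start sites of the 4 genes with a non-overlapping probe set are shown to let their promoters be compared. They were chosen after the signals were seen. The sequences are from RefSeq on assembly GRCr8, 250 bases before each annotated start, 5′ to 3′ on the strand of the gene, with each CG dinucleotide in capitals. Nr1i3 is at chr13:86165170-86165419 on the + strand, Nfe2l2 at chr3:81029000-81029249 on the - strand and Rxra at chr3:31387642-31387891 on the + strand. The Nfe2l2 start lies 2166 bases inside the outer end of the annotated gene, and the Nr1i3 start 93 bases. Hnf4a has 2 starts, at chr3:172605970-172606219 and, 35616 bases downstream, at chr3:172641586-172641835, both on the + strand.
Nr1i3: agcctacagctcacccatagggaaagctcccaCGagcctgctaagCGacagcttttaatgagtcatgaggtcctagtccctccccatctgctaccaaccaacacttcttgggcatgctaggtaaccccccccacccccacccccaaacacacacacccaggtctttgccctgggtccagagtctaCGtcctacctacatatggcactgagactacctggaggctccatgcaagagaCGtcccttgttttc
Nfe2l2: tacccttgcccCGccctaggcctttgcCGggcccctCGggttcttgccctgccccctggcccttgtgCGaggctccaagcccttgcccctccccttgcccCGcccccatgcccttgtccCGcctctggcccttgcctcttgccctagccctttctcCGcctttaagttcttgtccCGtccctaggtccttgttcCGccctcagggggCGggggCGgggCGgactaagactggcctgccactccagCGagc
Rxra: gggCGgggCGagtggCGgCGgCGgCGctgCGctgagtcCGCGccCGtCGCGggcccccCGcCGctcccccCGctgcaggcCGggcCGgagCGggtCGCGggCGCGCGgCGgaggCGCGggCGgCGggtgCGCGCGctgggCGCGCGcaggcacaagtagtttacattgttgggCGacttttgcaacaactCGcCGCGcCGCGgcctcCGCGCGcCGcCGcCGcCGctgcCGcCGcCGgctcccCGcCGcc
Hnf4a, upstream start: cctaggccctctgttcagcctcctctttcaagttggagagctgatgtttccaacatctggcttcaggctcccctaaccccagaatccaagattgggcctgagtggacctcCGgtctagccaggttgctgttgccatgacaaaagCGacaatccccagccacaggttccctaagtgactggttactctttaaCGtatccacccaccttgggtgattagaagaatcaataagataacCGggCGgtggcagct
Hnf4a, downstream start: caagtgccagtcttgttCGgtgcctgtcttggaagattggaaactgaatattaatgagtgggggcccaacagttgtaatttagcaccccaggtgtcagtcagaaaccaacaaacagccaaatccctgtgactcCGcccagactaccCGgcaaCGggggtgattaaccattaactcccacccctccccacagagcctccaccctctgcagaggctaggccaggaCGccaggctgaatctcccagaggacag

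These windows were of unlike base composition. Rxra held 52 CG dinucleotides and 82.8% G and C, and Nfe2l2 held 13 and 69.2%. Nr1i3 held 4 CG dinucleotides at 55.6%, and each Hnf4a start held 5, at 52.4% and 54.8%, close to the median of 5 and 51.2% over 33469 rat windows of that length. The other 6 genes had 1 window each, from 42.8% G and C for Foxa2 to 76% for Ppara. Short motifs were searched on both strands of the 11 windows. The nuclear receptor hexamer AGGTCA was in 0 of 11, where 14.1% of all windows hold it. The antioxidant response element TGACNNNGC was in 1, the downstream Hnf4a start, as TGACTCCGC from 123 to 115 bases before the start, against 10.1% of all windows. The FOXA core TGTTTAC was in 1, that of Nr1h3, against 3.21%. The Nr1h3 start lies 8824 bases inside the outer end of its gene. The letters CAAAGTCCA of an HNF4 site and TTGCGCAA of a C/EBP site were in none, against 0.338% and 0.14%. The 2 matches lay in windows of different genes. A match of letters is a description and not a site of binding.

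The genes whose 6-array profile lay nearest to that of Nr1i3 were Fam168b, Ptov1 and Glyat. The root mean square difference of their centred log2 signals was 0.044, 0.054 and 0.066 over the 6 arrays. Their log2 differences between the groups were 0.24 ± 0.12, 0.39 ± 0.14 and 0.35 ± 0.11 (SE), none past the threshold. The group difference is part of the profile used to pick them, so values near that of Nr1i3 follow from the choice. Glyat encodes the enzyme that conjugates acyl groups to glycine. For Nr1i2 the nearest were Slc16a10, an aromatic amino acid transporter, Ndufa11, a subunit of respiratory complex I, and Rap1b, a small GTPase, at 0.031, 0.055 and 0.056. These lists describe 6 arrays and no more.

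Other genes of the same pathways were counted as background for the 10. Among 22 other nuclear receptors tested none passed, and the median log2 difference was -0.10. Nr0b2 encodes SHP, a receptor without a DNA-binding domain that represses others, HNF4-alpha and LXR among them. It read 338.2, 494 and 205 across the control animals against 584, 1072 and 614.8 across the treated ones. Its groups did not overlap, at a log2 difference of 1.16 ± 0.32 (SE, n = 3 each, limma adjusted p = 0.241). Ppard, a fatty acid receptor related to PPAR-alpha, had -0.45 ± 0.14 (adjusted p = 0.283 in limma). Of 16 coactivators and corepressors none passed and the median was 0.06. The methyltransferase Carm1 had -0.25 ± 0.12 and the acetyltransferase Ep300 0.15 ± 0.09.

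The proteins that hold CAR in the cytoplasm or release it gave no call among 14 tested (median 0.08). Ppp2r1a, the scaffold subunit of the phosphatase PP2A, which acts in the release of CAR, read 251.5, 258.2 and 278.6 without the compound and 330.5, 307 and 338.3 with it. These did not overlap, at 0.31 ± 0.09 (SE, n = 3 each, limma adjusted p = 0.285). Fkbp5, an immunophilin of steroid receptor complexes, had 0.80 ± 0.26 with overlapping groups (adjusted p = 0.304 in limma). For NRF2, 9 partners and members of its degradation machinery were tested and none passed. All 9 had a difference above 0 (median 0.13), where 47.5% of all genes did, and 8 of 9 under quantile normalization. Rbx1, the RING subunit of the KEAP1 ligase, had 0.20 ± 0.08 and the small MAF partner Mafk 0.34 ± 0.22 (adjusted p = 0.395 and 0.59 in limma).

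None of 20 other liver-enriched transcription factors passed (median -0.10). Atf5, a stress-responsive factor abundant in liver, read 1588, 1676 and 1719 on the control arrays against 893.5, 596.9 and 1106 on the treated arrays. That is a log2 difference of -0.99 ± 0.19 without overlap (SE, n = 3 each, limma adjusted p = 0.115). Klf15, a regulator of amino acid and glucose metabolism, had 0.43 ± 0.10 (adjusted p = 0.168 in limma), again without overlap.

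Of the 20 genes past the threshold, 7 lay among the CAR or PXR targets and 1 among those of HNF4-alpha, C/EBP-alpha or FOXA2. The others lay outside the lists followed here. Of 18 known targets of CAR or PXR tested, 7 rose and none fell, beside 0.196% of all genes higher and 0.0217% lower, and the list was chosen with these results known. These were Abcc3, Akr7a3, Aldh1a1, Ces2c, Ephx1, Gstm1 and Ugt2b1. Of these 7 calls, 3 were kept without treated replicate 2 (Akr7a3, Ces2c and Ugt2b1), 4 without treated replicate 3 (the same 3 and Abcc3) and 2 without an intensity trend in the variance model (Abcc3 and Ces2c). The 3 with the smallest p were Ces2c, Abcc3 and Akr7a3. The carboxylesterase Ces2c read 242.5, 306 and 240.2 across the control animals against 976, 1008 and 1081 across the treated ones, a log2 difference of 1.97 ± 0.11 (SE, limma adjusted p = 0.000591). Akr7a3, an aldo-keto reductase, had 1.94 ± 0.15 (adjusted p = 0.00202 in limma), and did not pass without an intensity trend (adjusted p = 0.0584). Abcc3, an export pump, was below the array median on all 3 control arrays and read 113.7, 121.6 and 100.5 in treated livers. The treated geometric mean of 112 was at least 3.94-fold the bound of 28.3 that the control array medians gave on average. Abcc3 met the filter through its 3 treated arrays alone. Its adjusted p of 0.000861 in limma belongs to the signals as measured, and without treated replicate 2 it was 0.0593. Cyp3a23-3a1, the hallmark target of PXR, had -0.17 ± 0.14 and did not pass. Cyp3a2 and Cyp2c7 were lower without overlap, at -0.16 ± 0.07 and -0.19 ± 0.07 (SE), and did not pass. In this list 7 genes were higher and 2 lower without overlap, beside 9.04% and 9.23% of all genes. Of the 24 genes listed, Cyp2b1 and Cyp2b2, the hallmark targets of CAR, had no probe set with their symbol alone. Nor had Ugt1a1, Gsta2 and Abcb1b, so these, like Cyp2b1 and Cyp2b2, had no result as named genes. Kept probe sets with several symbols stayed in the fit but were assigned to no gene. Sult2a1 was below the filter and was not tested.

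**Figure D3:**
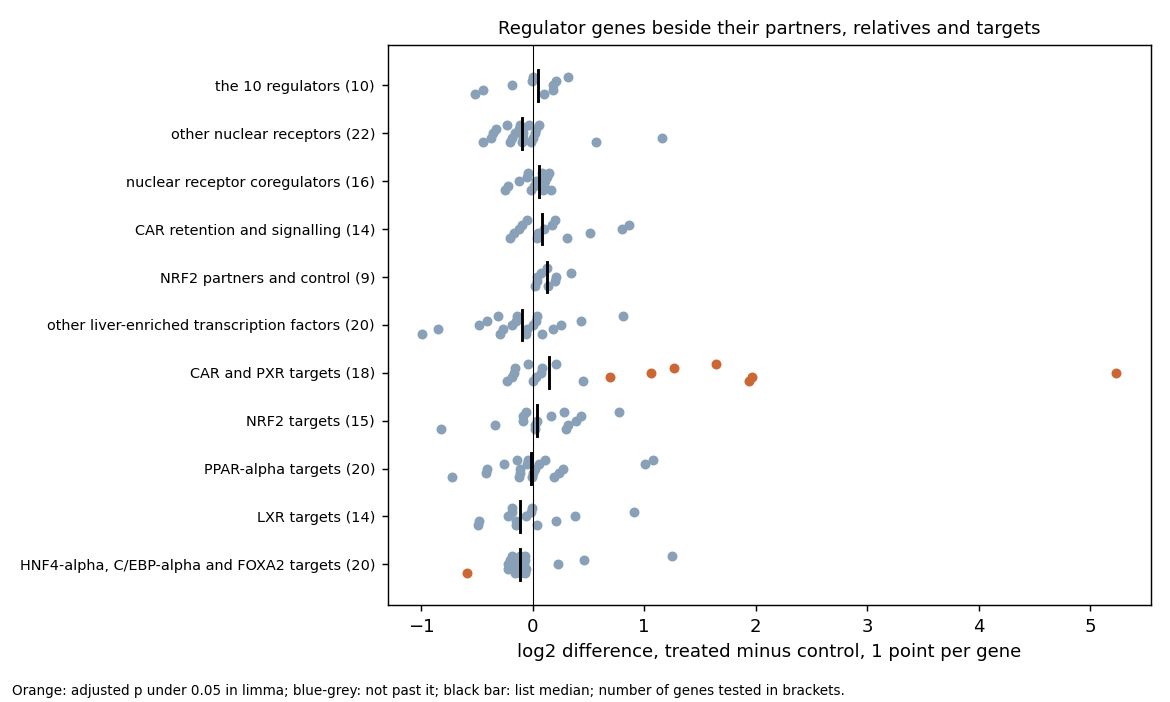
Log2 difference of treated minus control (horizontal axis), 1 point per gene, for the 10 regulators and 10 lists of relatives, partners and targets, with the number of genes tested in brackets and the list median as a black bar. Orange points passed an adjusted p of 0.05: 7 targets of CAR or PXR, and 1 target of HNF4-alpha, C/EBP-alpha or FOXA2, while the 10 regulators lie between -0.52 and 0.32.

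The target lists of the other regulators gave 1 call. No gene stands in both the CAR or PXR list and the NRF2 list. Whether the called genes of the CAR or PXR list also answer to NRF2 was not tested. None of 15 NRF2 targets passed (median 0.04), and 10 of the 15 were above 0. Txn1, thioredoxin, had 0.30 ± 0.08 and Gclm, a subunit of the enzyme that limits glutathione synthesis, 0.39 ± 0.11, both without overlap between the groups. Me1 had 0.77 ± 0.26 and Gsr 0.28 ± 0.15, also without overlap. Of the 15, 4 were higher and 0 lower without overlap, beside 9.04% and 9.23% of all genes. On the other side of 0 were Osgin1, an oxidative stress response gene, at -0.82 ± 0.30 and the carbonyl reductase Cbr1 at -0.34 ± 0.17, both with overlapping groups. Nearer to 0 were Nqo1 (-0.09 ± 0.39), Gclc (-0.09 ± 0.15), Hmox1 (0.02 ± 0.17) and Txnrd1 (0.04 ± 0.14), also with overlapping groups. None of 20 PPAR-alpha targets passed (median -0.02), with the fatty acid transporter Cd36 at 1.01 ± 0.21 and Pdk4, a kinase that restrains glucose oxidation, at -0.42 ± 0.16. Cd36 passed in 2 alternatives, at 1.18 with each array centred on its median and at 1.25 without control replicate 2 (limma adjusted p = 0.0385 and 0.0418). None of 14 LXR targets passed, a list that holds Nr1h3 itself (median -0.11). In it Srebf1, the lipogenic factor, had -0.48 ± 0.13 and Cyp7a1, the rate-limiting enzyme of bile acid synthesis, 0.91 ± 0.39, with treated arrays at 721, 302.6 and 210.8, and 0.41 without the first of these. Of 20 targets of HNF4-alpha, C/EBP-alpha or FOXA2, Cyp8b1, the sterol 12-alpha-hydroxylase, fell by 0.59 ± 0.08 on the log2 scale (SE, n = 3 each, limma adjusted p = 0.0443). No single array could be left out without losing this call (adjusted p from 0.0533 to 0.173), and it was also lost with no filter, either centring, no intensity trend or a replicate block (0.0739, 0.205, 0.0628, 0.219 and 0.0893). In this list 17 of 20 genes were below 0, with a median of -0.11, where 4828 of all 9200 genes were below 0. Without overlap 7 were lower and 2 higher, beside 9.23% and 9.04% of all genes. The 2 higher ones were Igfbp1 at 1.25 ± 0.27 and Otc at 0.23 ± 0.07 (SE), and neither passed. The list genes Alb, Ttr, Apoa1, Serpina1, Tat, Cps1 and Fgb are also among the hepatocyte markers counted above. Under quantile normalization 14 of 20 were below 0 (median -0.05), and 17 of 20 with centring within kept probe sets (-0.08). Centring each array on its median moved all genes alike by 0.17, which put 15 of the 20 and 7082 of all 9200 genes above 0. With that shift the list medians given above as below 0 were 0.08 for other nuclear receptors and for other liver-enriched factors, 0.15 for PPAR-alpha targets, 0.07 for LXR targets and 0.06 for this list.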

How the data were processed

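The authors deposited linear probe set intensities; per the submitters' processing notes the tool was MAS5, whose version is not given in the sources used here. Each array had the same trimmed mean of 100 (2% left out at each end), so no further scaling was applied. Of 31099 probe sets, 57 control probe sets were left out, and 15778 lay above the median of their array in 3 or more of the 6 livers. Names came from GEO's platform annotation (20826 probe sets with 1 symbol, 436 with several, 9780 with none; 20758 matched to the GRCr8 gene table). A gene was represented by its brightest kept probe set. Log2 signals, with no pseudocount, were compared with limma 3.58.1 in R 4.3.3 (eBayes with an intensity trend), 2-sided, adjusted over all kept probe sets by Benjamini-Hochberg at 0.05. The fit was tested on simulated data.

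The 10 genes and the lists were chosen with earlier results of these data known. Named beside the 10 were, per list, up to 3 genes past the threshold or else the 2 with the smallest p, and the 3 nearest profiles of Nr1i3 and Nr1i2. Cyp3a23-3a1, Cyp3a2, Cyp2c7, Aldh1a1, Ephx1, Gstm1, Ugt2b1, Osgin1, Cbr1, Me1, Gsr, Cd14, Clec4f, Epcam and Krt18 were added after their values were seen. So were Nqo1, Gclc, Hmox1, Txnrd1, Igfbp1, Otc, Lyve1, Eng and Col3a1. No label states that equal replicate numbers mark a shared litter or day. The alternatives changed the filter, scaling, pseudocount (16), variance model, array weights, replicate block, probe set rule and arrays. Protein sequences were not used here.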

Additional observations from a re-analysis of the deposited data

How the results depend on the processing

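No regulator gene passed the threshold in any of the 16 alternatives, and 147 of 159 recomputed differences of the 10 genes kept their direction. Reversals were all small. Keap1 was 0.00 with quantile normalization, 0.17 with each array centred on its median and 0.03 with centring within kept probe sets, an alternative added after seeing the data. Hnf4a was 0.17 and 0.03 under these centrings and 0.14 with the mean over its probe sets. When single arrays were left out, the range was -0.10 to 0.13 for Hnf4a, -0.07 to 0.10 for Keap1, -0.09 to 0.43 for Ppara, 0.00 to 0.21 for Nr1i2, -0.31 to -0.10 for Nr1h3 and -0.03 to 0.21 for Slc16a10. Ppara could not be tested under the filter at the 70th percentile. The count of 20 genes past the threshold became 50 with median centring, 2 without an intensity trend, 13 with a replicate block, and 4 to 21 with single arrays left out, the lowest being 4 without treated replicate 2 and 7 without treated replicate 3. Same-numbered arrays deviated together only for replicate 2 (correlation 0.105, against -0.0997 and -0.0648), so the numbers were not taken as pairs, and with the replicate block 0 regulator genes passed. The cause of these changes was not tested.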
